A study of Homo sapiens with 2 samples.

Results

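Ceramide and sphingolipid metabolism was followed in fat-loaded HepG2 cells through 34 genes. They were taken by symbol from a list of the enzymes that make ceramide, turn it into sphingomyelin, release it again, cleave it and handle sphingosine phosphate, together with regulators of the initial step, and all 34 were found among the 60623 gene entries of the counted libraries. Of these, 30 had at least 10 counts over both libraries and were compared, as were 20431 genes in all. The libraries came from wild-type (WT) HepG2 cells, a human hepatocellular carcinoma line grown as a stand-in for hepatocytes, so the values are those of a tumor line. All cells were loaded for 24 h with 1 mM FFA, a mixture of oleic and palmitic acid carried on albumin, and those of one group were given 10 μM 9-cis-RA as well, an isomer of retinoic acid and ligand of the RXR and RAR nuclear receptors. Each group, FFA and FFA + 9-cis-RA, had 1 library from the same batch, and no group without FFA was analysed here. The comparison asks how the sphingolipid genes differed between steatotic cells with and without 9-cis-RA, and it does not separate RXR from RAR signaling.

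Sphingolipids are built on a sphingoid base that serine palmitoyltransferase makes from serine and palmitoyl-CoA, so palmitic acid is a direct substrate of the pathway. Ceramide synthases attach a fatty acid to the base, a desaturase completes ceramide, and ceramide is then stored as sphingomyelin or glycolipids, phosphorylated, or cleaved to sphingosine, which kinases turn into the signaling lipid sphingosine phosphate. In liver, ceramide is known for its rise with fat overload and its effects on insulin signaling, and very-long-chain ceramides made by CERS2 are the main hepatic forms. These lipids were not measured in the files analysed here, which hold RNA counts alone.

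The FFA library held 60821539 counts and the FFA + 9-cis-RA library 57669670, of which mitochondrial genes took 10.4% and 9.96%. Levels are given in TPM, the counts of a gene per exon length scaled to the same total in each library. Wherever a pair of values follows a gene, FFA comes first and FFA + 9-cis-RA after it. Differences are given as the log2 fold change of normalized counts, FFA + 9-cis-RA against FFA, with an exact 95% interval. With 1 library per group no replicate error exists, so no p-value is given, and the interval covers counting error only and compares these 2 libraries, not the conditions. In bulk RNA, fewer cells with a transcript and less of it per cell cannot be told apart. All 10 hepatocyte markers were counted, with a summed level of 14356 TPM with FFA alone and 12278 TPM with FFA + 9-cis-RA. They differed in both directions, 4 positive and 6 negative on the log2 scale, from AFP at -0.99 and ALB at -0.70 to FGB at 0.84. Of 6 markers for each of 3 other cell types, PTPRC of macrophages, DCN of stellate cells and KDR and CLEC4G of endothelial cells had 0 counts in both libraries. The summed levels of these lists were 159 and 98.3 TPM for macrophages, almost all of it LYZ, 19.3 and 13.7 TPM for stellate cells, and 1.35 and 0.883 TPM for endothelial cells. The part of these differences in the sphingolipid values was not tested. As a check of the treatment label, CYP26A1, RARB and DHRS3, which retinoids are known to induce, had log2 fold changes of 7.17, 2.77 and 0.86.

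As a group, the sphingolipid genes stood near the middle of all genes, and a few members stood far from it. Among the 30 compared members, SGMS2, SMPD1 and ACER3 were above 0.5 on the log2 scale, a 1.41-fold difference, and SPTLC3 was below -0.5. The median log2 fold change of the 30 was -0.0048, with quartiles at -0.16 and 0.14, beside a median of -0.020 and quartiles of -0.26 and 0.18 over all genes compared. Exactly 15 members had a positive value and 15 a negative one. The 3 members above 0.5 make 10% of the 30, and 9.03% of all genes compared were above it. The 1 member below -0.5 makes 3.33%, against 14.3% of all genes. No member was above 1, a 2-fold difference, where 3.37% of all genes lay, and SPTLC3 alone was below -1, with 4.9% of all genes. These shares lie close to the background or under it, so the number of members past a fold is no result about the pathway.

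The position of single members can be read more closely, because most of them were well counted. Of the 30, 24 had at least 1000 counts over both libraries. Among the 10298 genes that reach this minimum, 1.73% were above 0.5 and 4.38% below -0.5, and of the 24 members SMPD1 and ACER3 were above it and SPTLC3 below. Below -1 lay 0.660% of these well-counted genes, SPTLC3 among them. The plot of fold change against abundance shows these members outside the band in which most genes of equal abundance lie. The 4 members past 0.5 also had their whole interval past it: 3 above, where 1.51% of all genes were, and 1 below, where 3.71% were. The whole interval of SPTLC3 lay below -1, as it did for 0.93% of all genes, and no member had an interval wholly above 1, against 0.387% of all genes.

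**Figure D1:**
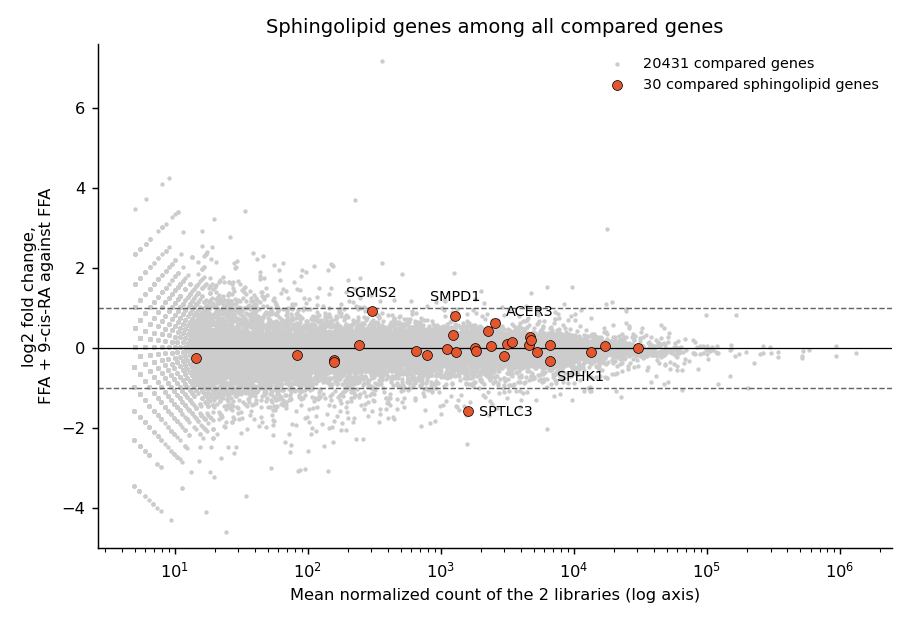
Log2 fold change of FFA + 9-cis-RA against FFA (y axis) by the mean normalized count of both libraries (x axis, log scale) for the 20431 genes compared (grey) and the 30 compared sphingolipid genes (orange), with dashed lines at 1 and -1. Most sphingolipid genes lie close to 0, SPTLC3 lies at -1.57 among genes of similar abundance near 0, and SGMS2, SMPD1 and ACER3 lie between 0.63 and 0.91.

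By the looser criterion of a counting interval that leaves out 0, 12 members were higher with 9-cis-RA and 7 lower, while 0 lay inside the interval of the other 11. The 12 make 40% of the compared members, against 22.5% of all genes, and the 7 make 23.3%, against 25.7% of all genes. Deep counting narrows the interval, and among the genes with at least 1000 counts 34.4% had an interval above 0 and 34.7% one below, beside 11 and 6 of the 24 members. The split also moved with the scaling: 14 members were higher and 5 lower when the libraries were scaled by total counts, against 28.6% and 20.6% of all genes, and 12 and 6 with TMM factors, against 24.9% and 23.5%. The split over all genes moved the same way. The plot of all members by role shows where the differences sit.

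**Figure D2:**
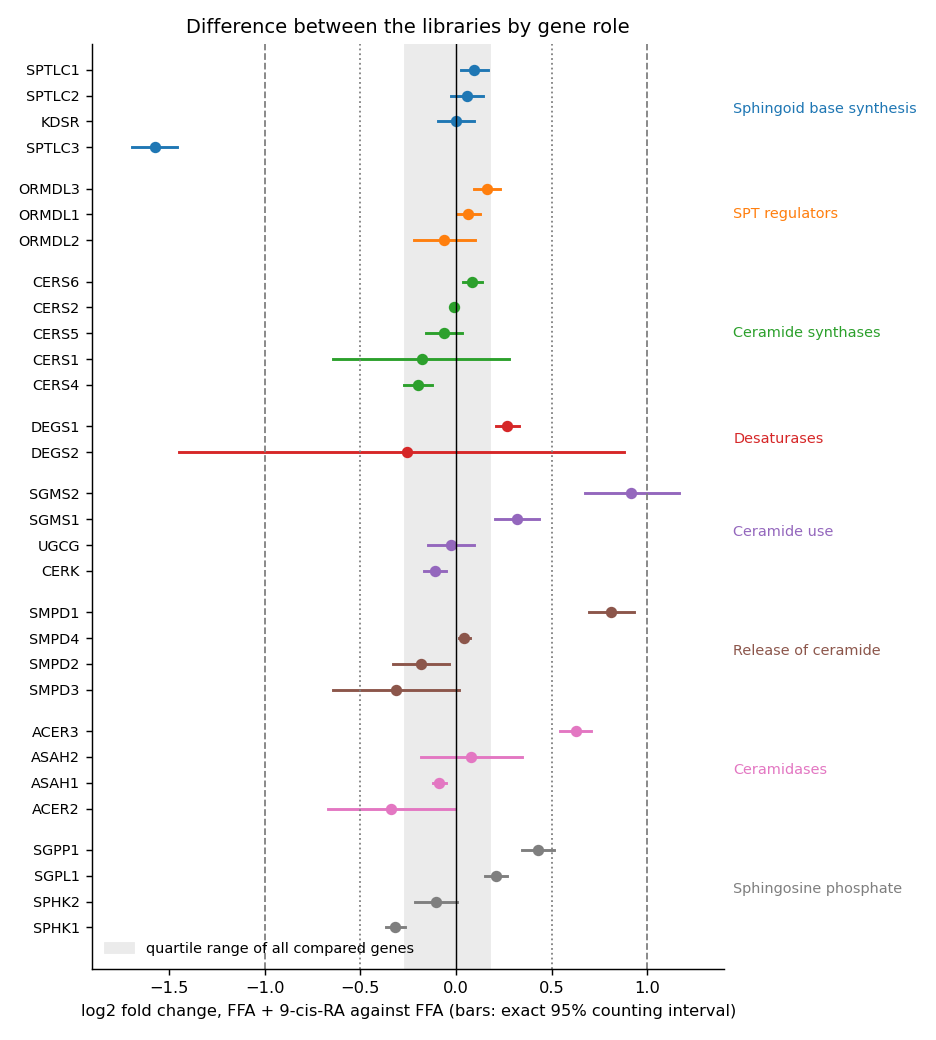
Log2 fold change of FFA + 9-cis-RA against FFA (x axis) for each of the 30 compared sphingolipid genes, grouped by role, with the exact 95% counting interval as a bar. Most roles hold members on both sides of 0, and in 4 of the 8 roles 1 member stands beyond 0.5 while its relatives lie nearer to 0.

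The stretches of DNA just before the start of the 3 members above 0.5, the sphingomyelin synthase gene SGMS2, the acid sphingomyelinase gene SMPD1 and the ceramidase gene ACER3, are shown because nuclear receptors that pair with RXR bind repeats of the letters AGGTCA. They are RefSeq promoter sequences in GRCh38.p14 on the plus strand, from 250 to 61 bases before the start as RefSeq gives it, with AGGTCA on either strand in capitals (TGACCT when it is on the minus strand). The SGMS2 window is chr4:107824313-107824502, the SMPD1 window chr11:6390224-6390413 and the ACER3 window chr11:76860668-76860857.
SGMS2: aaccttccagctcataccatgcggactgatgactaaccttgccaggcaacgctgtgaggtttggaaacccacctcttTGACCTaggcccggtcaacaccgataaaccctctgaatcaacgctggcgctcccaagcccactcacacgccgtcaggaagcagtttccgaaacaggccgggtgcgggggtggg
SMPD1: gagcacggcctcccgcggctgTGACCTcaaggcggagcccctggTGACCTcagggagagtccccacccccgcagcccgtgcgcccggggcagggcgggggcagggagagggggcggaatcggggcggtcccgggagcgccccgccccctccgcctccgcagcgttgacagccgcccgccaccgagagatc
ACER3: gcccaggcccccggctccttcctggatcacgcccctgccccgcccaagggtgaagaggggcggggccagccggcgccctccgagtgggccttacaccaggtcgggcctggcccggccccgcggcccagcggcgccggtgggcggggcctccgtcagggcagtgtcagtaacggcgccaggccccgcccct
The SGMS2 window holds the letters starting 173 bases before the start, the SMPD1 window holds them starting 229 and 206 bases before it, and the ACER3 window does not hold them. These distances are from the RefSeq start, which for SMPD1 and ACER3 lies downstream of the gene start in the deposited tables. Such a match is common and describes the letters alone: 9.13% of all 35116 RefSeq windows of this length hold AGGTCA on either strand. The 27 members with a RefSeq entry have 45 windows, of which 4 hold it, those of ASAH2, CERS3, SGMS2 and SMPD1, so the members' share is near that of all windows. Of these genes ASAH2 had a log2 fold change of 0.080 and CERS3 no count. The variant GGGTCA was found in 9.03% of all windows and in 5 of the 45, those of CERS3, DEGS1, GALC, SMPD2 and SPTLC1. AGTTCA was found in 7.05% of windows and for ASAH2 alone. GGTTCA, in 5.73% of windows, and the E-box CACGTG, in 4.13%, were found in no member window. Repeats of AGGTCA in direct order with 1, 2, 4 or 5 bases between them were found in no member window, and in at most 5 of all 35116 windows. A window with a direct repeat also counts as one with the single copy. SPTLC3 is among the members without a RefSeq entry, so none of these searches covered it.

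The levels of the members spanned a wide range, from CERS2 at 314 TPM with FFA alone and 332 TPM with FFA + 9-cis-RA to genes with no count at all. CERS2, SMPD4, DEGS1, SPHK1, ORMDL1 and CERK were the 6 highest members in both libraries, in that order. The largest shift in this order was that of SPTLC3, from place 16 to place 24 of 34, followed by ACER3, from place 21 to place 15. Together the members took 0.203% of all counts with FFA alone and 0.211% with FFA + 9-cis-RA. Their summed level was 1085 and 1182 TPM. TPM values run higher in the FFA + 9-cis-RA library for genes whose normalized counts were equal, as KDSR shows with 9.69 and 10.3 TPM at a log2 fold change of 0.00068, so the difference between the libraries is read from normalized counts and TPM serves to compare genes within a library.

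**Figure D3:**
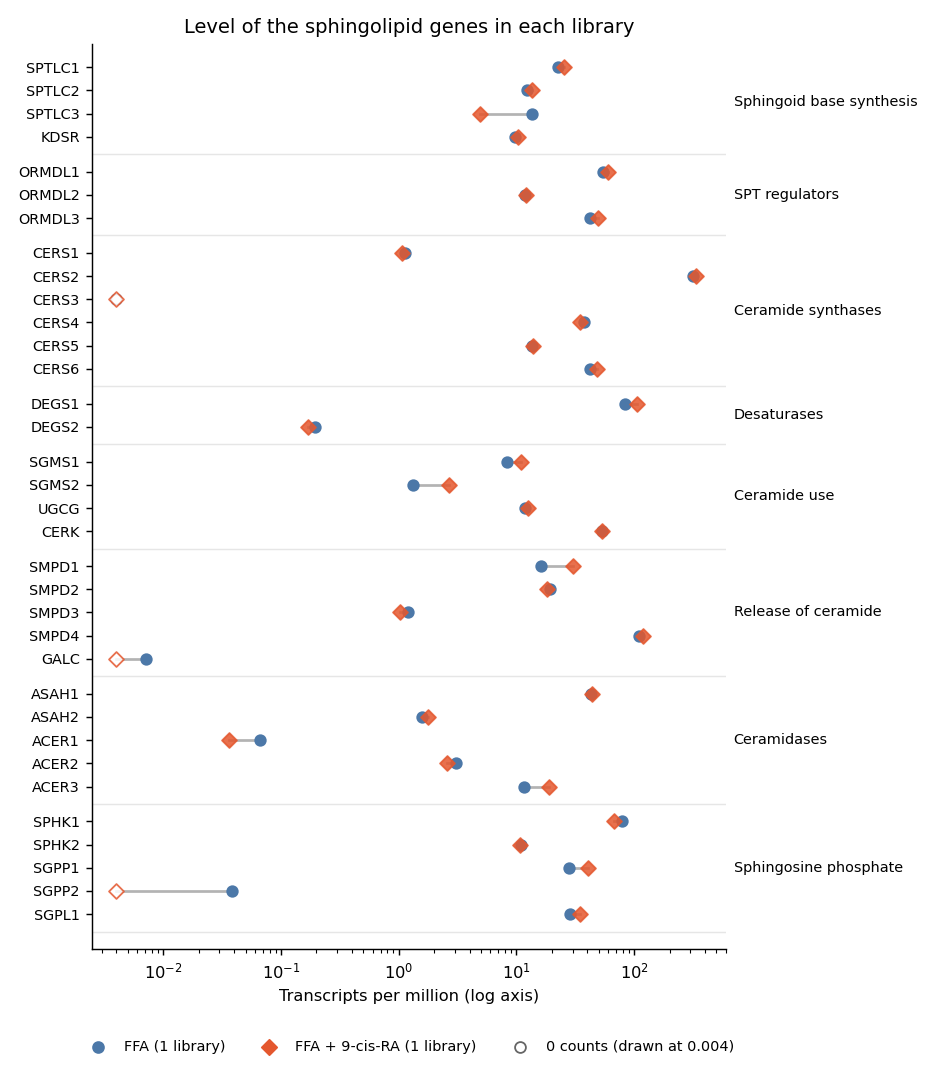
Level of each of the 34 sphingolipid genes in TPM (x axis, log scale) in the FFA library (blue circles) and the FFA + 9-cis-RA library (orange diamonds), grouped by role, with open symbols for genes at 0 counts. The libraries nearly coincide for most genes, SPTLC3 is lower in the FFA + 9-cis-RA library (13.6 against 4.86 TPM), and SGMS2, SMPD1 and ACER3 are higher.

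Sphingoid base synthesis held the largest single difference. SPTLC3, a catalytic subunit of serine palmitoyltransferase that can take the place of SPTLC2 beside SPTLC1, had 2432 counts with FFA alone and 801 with FFA + 9-cis-RA. Its level was 13.6 and 4.86 TPM, 2.98-fold lower by normalized counts, and its log2 fold change was -1.57 with a 95% interval from -1.69 to -1.46. The partners and the next enzyme lay near 0. SPTLC1, the subunit common to all forms of the enzyme, had 3064 and 3214 counts and a log2 fold change of 0.10 (0.025 to 0.17). SPTLC2, the more widely used catalytic subunit, had 2363 and 2412 counts, and its value of 0.057 had an interval that included 0 (-0.025 to 0.14). KDSR, which reduces the product of the enzyme to sphinganine, had 1837 and 1803 counts and a log2 fold change of 0.00068 (-0.094 to 0.095). SPTLC3 (ENSG00000172296) lies on the plus strand of chromosome 20 from 13008972 to 13169103 in GRCh38, and 1.59% of all genes compared were at its value or lower.

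The mix of the catalytic subunits differed between the libraries accordingly. Of the counts of SPTLC2 and SPTLC3 together, SPTLC3 took 50.7% with FFA alone (exact interval 49.3% to 52.1%, 4795 counts) and 24.9% with FFA + 9-cis-RA (23.4% to 26.5%, 3213 counts). Shares within a family do not depend on how the libraries are scaled to each other. Per exon length, the level of SPTLC3 was 1.10 times that of SPTLC2 with FFA alone and 0.356 times that with FFA + 9-cis-RA. Against SPTLC1 it was 0.606 and 0.190 times, while the ratio of SPTLC2 to SPTLC1 was 0.549 and 0.535. The SPTLC2 to SPTLC1 ratio thus stayed near the same value while both SPTLC3 ratios were lower with 9-cis-RA.

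**Figure D4:**
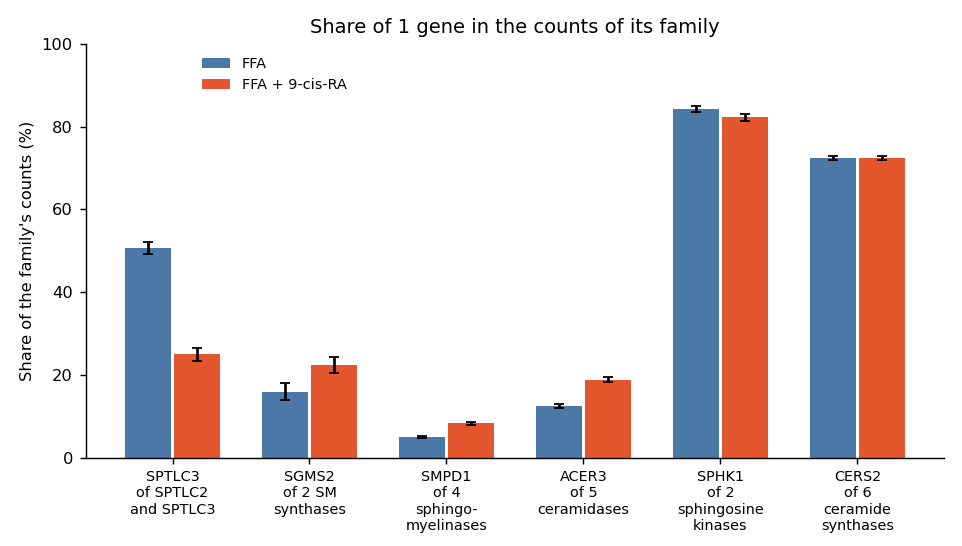
Share of a gene in the counts of its own family, in percent (y axis, from 0), in the FFA library and the FFA + 9-cis-RA library, with exact 95% binomial intervals as error bars. SPTLC3 took 50.7% and 24.9% of the SPTLC2 and SPTLC3 counts, while SGMS2, SMPD1 and ACER3 took larger shares of their families with 9-cis-RA.

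The ORMDL proteins bind serine palmitoyltransferase in the endoplasmic reticulum and hold its activity down when ceramide is plentiful. None of their 3 genes was past 0.5. ORMDL3 was the one with the largest difference, at 3289 and 3607 counts and a log2 fold change of 0.16 (0.092 to 0.23). ORMDL1, the most abundant at 54.3 and 60.5 TPM, had 4566 and 4686 counts and a value of 0.065 (0.0059 to 0.12). ORMDL2 had 666 and 626 counts and a value of -0.062 with 0 inside its interval (-0.22 to 0.098). Among the partners of the enzyme that are not members, the small subunit gene SPTSSA had 4244 and 5017 counts and a log2 fold change of 0.27 (0.21 to 0.33), and RTN4, which encodes a reticulon of the endoplasmic reticulum, had a value of 0.10 (0.067 to 0.13).

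Ceramide synthases, which differ in the length of the fatty acid they attach, lay close together. CERS2, the synthase of very-long-chain ceramides and the most abundant member of all, had 30628 and 29835 counts and a value of -0.010 (-0.033 to 0.013), which was 0.039 when the libraries were scaled by total counts. Its share of all ceramide synthase counts was 72.4% (72.0% to 72.9%) and 72.5% (72.1% to 72.9%). CERS4 was lower in the FFA + 9-cis-RA library, at 3200 and 2733 counts and -0.20 (-0.27 to -0.13). CERS6, which makes the palmitoyl-containing ceramides linked with insulin resistance in obesity models, was higher, at 6458 and 6725 counts and 0.086 (0.037 to 0.14). CERS5, which has the same chain preference, had 1903 and 1788 counts and -0.062 (-0.16 to 0.032).

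The remaining synthases were rare in these cells. CERS1, known from nerve and muscle, had 89 and 77 counts and a value of -0.18 with an interval that included 0 (-0.64 to 0.28). Its counts are uncertain, since 68.3% of its exonic bases are shared with GDF1 on the strand of both genes and fragments that overlap 2 genes were not counted. CERS3, a synthase of skin and testis, had 0 counts in both libraries, which allows up to 0.0493 CPM, a scale on which each library's counts have the same total, with FFA alone and 0.0520 CPM with FFA + 9-cis-RA at a limit of 3 counts.

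The desaturases, which turn dihydroceramide into ceramide, were represented almost wholly by DEGS1. DEGS1 was higher in the FFA + 9-cis-RA library, at 4249 and 5019 counts, 82.8 and 106 TPM, and a log2 fold change of 0.27 (0.21 to 0.33). DEGS2, which also hydroxylates the base, had 16 and 13 counts and an interval too wide to place it (-0.25, -1.45 to 0.88). With both together the level of this step was 83.0 TPM with FFA alone and 106 TPM with FFA + 9-cis-RA.

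Of the enzymes that use ceramide, both sphingomyelin synthases were higher with 9-cis-RA and the others were at or slightly under their FFA level. SGMS2, the synthase found mainly at the plasma membrane, had 211 and 391 counts, 1.32 and 2.65 TPM, 1.88-fold higher with a log2 fold change of 0.91 (0.67 to 1.17). SGMS1, the Golgi synthase, had 1114 and 1364 counts and a value of 0.32 (0.20 to 0.44). SGMS1 was the more abundant of the pair in both libraries, and SGMS2 took 15.9% of their counts with FFA alone (14.0% to 18.0%) and 22.3% with FFA + 9-cis-RA (20.4% to 24.3%). UGCG, which starts the glycosphingolipids by adding glucose to ceramide, had 1143 and 1100 counts and -0.028 (-0.15 to 0.093). CERK, which phosphorylates ceramide, was the most abundant of these 4 genes at 53.5 and 52.8 TPM, with 5534 and 5032 counts and a value of -0.11 (-0.16 to -0.054). SGMS2 (ENSG00000164023), whose window printed above holds AGGTCA as well, lies on the plus strand of chromosome 4 from 107824563 to 107915047.

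Ceramide is released again from sphingomyelin by sphingomyelinases, and among these the lysosomal enzyme stood apart. SMPD1, acid sphingomyelinase, the gene mutated in the sphingomyelin storage forms of Niemann-Pick disease, had 938 counts with FFA alone and 1616 with FFA + 9-cis-RA. Its level was 16.3 and 30.5 TPM, 1.76-fold higher by normalized counts with a log2 fold change of 0.81 (0.70 to 0.93). The neutral sphingomyelinases lay between -0.31 and 0.045. SMPD4, the most abundant at 109 and 120 TPM, had 16907 and 17107 counts and a value of 0.045 (0.014 to 0.075), which turned to -0.0020 with a trend on gene length removed. For SMPD4, 11.6% of its 75-base stretches also occur in another gene, so part of its reads may not have been counted. SMPD2 was slightly lower, at 838 and 725 counts and -0.18 (-0.33 to -0.036). SMPD3 had 176 and 139 counts and -0.31 (-0.64 to 0.016). SMPD1 therefore took 4.97% of the counts of the 4 sphingomyelinases with FFA alone (4.67% to 5.29%) and 8.25% with FFA + 9-cis-RA (7.87% to 8.64%), or 11.2% and 18.0% per exon length. GALC, the lysosomal galactosylceramidase, had 1 and 0 counts, at which no difference can be seen. SMPD1 (ENSG00000166311), whose window printed above holds AGGTCA more than once, lies on the plus strand of chromosome 11 from 6390440 to 6394998.

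Ceramidases cleave ceramide to sphingosine, and of their 4 compared genes ACER3 was past 0.5. ACER3, an alkaline ceramidase of the endoplasmic reticulum and Golgi that prefers unsaturated ceramides, had 2039 and 3089 counts. Its level was 11.5 and 18.9 TPM, 1.54-fold higher in the FFA + 9-cis-RA library with a log2 fold change of 0.63 (0.55 to 0.71). ASAH1, the lysosomal acid ceramidase and the most abundant of the family at 43.4 and 43.5 TPM, had 13997 and 12930 counts and a value of -0.087 (-0.12 to -0.052). Its value left this interval under other settings, at -0.038 with total counts and -0.15 with a trend on gene length removed. ACER3 accordingly took 12.4% of all ceramidase counts with FFA alone (11.9% to 12.9%) and 18.8% with FFA + 9-cis-RA (18.2% to 19.4%), while the share of ASAH1 was 85.1% and 78.8%. The level of SMPD1, which acts just before ASAH1 in the lysosome, was 0.376 times that of ASAH1 with FFA alone and 0.701 times with FFA + 9-cis-RA. ACER3 (ENSG00000078124) lies on the plus strand of chromosome 11 from 76860867 to 77026797.

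The other ceramidases were rare. ACER2, a Golgi ceramidase, had 178 and 138 counts and a value of -0.34 (-0.67 to -0.011), with 8.18% of its 75-base stretches found in another gene. ASAH2, the neutral ceramidase, had 240 and 249 counts and a value of 0.080 (-0.18 to 0.34), and 43.8% of such stretches are found in another gene, such as ASAH2B, so its counts are uncertain. ACER1, a ceramidase of skin, had 2 and 1 counts, too few to compare.

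Of the members that handle sphingosine phosphate, the kinase SPHK1 was lower with 9-cis-RA, while SGPP1 and SGPL1, which remove its product, were higher. SPHK1, the cytosolic sphingosine kinase and the fourth most abundant member, was lower in the FFA + 9-cis-RA library, at 7343 and 5786 counts and 79.2 and 67.7 TPM, with a log2 fold change of -0.32 (-0.37 to -0.27). SPHK2, the kinase also found in the nucleus, had 1368 and 1248 counts and -0.10 (-0.22 to 0.0069). SPHK1 supplied most kinase counts in both libraries, 84.3% (83.5% to 85.1%) and 82.3% (81.3% to 83.1%). On the side of removal, SGPP1, a phosphatase of the endoplasmic reticulum that returns sphingosine phosphate to sphingosine, was higher at 1961 and 2589 counts and 0.43 (0.34 to 0.51). SGPL1, the lyase that degrades it for good, was higher at 4472 and 5077 counts and 0.21 (0.15 to 0.27). SGPP2 had 4 and 0 counts and was not compared. The level of SPHK1 was 2.79 times that of SGPL1 with FFA alone and 1.94 times with FFA + 9-cis-RA. None of these values reached 0.5 in either direction. The summed level of the role was 147 and 154 TPM, while its summed counts were 15148 and 14700. The lipid phosphatase genes among the neighbouring genes did not go with SGPP1 and SGPL1. PLPP3 was lower, at 4914 and 3943 counts and -0.29 (-0.35 to -0.23). PLPP1 was lower too, at 947 and 818 counts and -0.18 (-0.32 to -0.047), and PLPP2 had 4 and 7 counts.

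Around these members, 64 further genes of the pathway were listed, of which 57 could be compared. They feed acyl-CoA to the synthases, move ceramide between membranes, build and break glycosphingolipids, and carry or sense sphingosine phosphate. They had a median of 0.023 on the log2 scale and quartiles of -0.22 and 0.18, and 30 values were positive and 27 negative. Above 0.5 lay 7 of the 57 (12.3%) and below -0.5 lay 5 (8.77%), beside the 9.03% and 14.3% of all genes given above. The interval was above 0 for 22 (38.6%) and below 0 for 21 (36.8%), beside 22.5% and 25.7% of all genes. Of the 57, 40 had at least 1000 counts, and among all genes with that many the shares were 34.4% and 34.7%. Above 1 lay 2 of the 57 and below -1 lay 3, all with few counts, beside 3.37% and 4.9% of all genes. SPTSSB, ELOVL4, HACD4, ST8SIA1, A4GALT, B3GALNT1 and GBA3 had too few counts to compare.

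**Figure D5:**
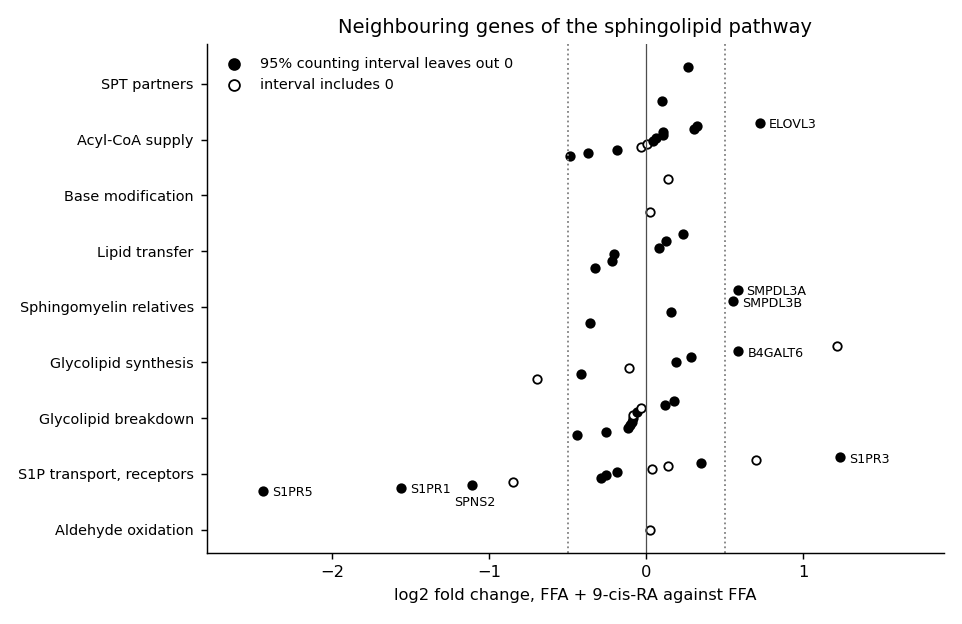
Log2 fold change of FFA + 9-cis-RA against FFA (x axis) for the 57 compared genes around the sphingolipid members, grouped by role, with filled points where the exact 95% counting interval leaves out 0 and dotted lines at 0.5 and -0.5. The widest scatter is among the genes of sphingosine phosphate (S1P) transport and receptors, whose outermost points had few counts, and the glycolipid breakdown genes all lie within the dotted lines.

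Glycosphingolipids are broken down mostly in the lysosome, where SMPD1 also acts. Of the 11 compared genes of this role, none was past 0.5 in either direction, 2 were positive and 9 negative, and their median was -0.085. The interval was below 0 for 7 of them (63.6%) and above 0 for 2 (18.2%). All 11 had at least 1000 counts, and among all genes with that many 34.7% had an interval below 0 and 34.4% one above. PSAP, the precursor of the saposins that help these enzymes, was the highest at 29547 and 32750 counts and 0.18 (0.15 to 0.20). Among the relatives of sphingomyelin metabolism, SMPDL3A and SMPDL3B, phosphodiesterases related in sequence to SMPD1, were higher with 9-cis-RA. SMPDL3A had 349 and 513 counts and a log2 fold change of 0.58 (0.38 to 0.78). SMPDL3B had 142 and 205 counts and 0.55 (0.24 to 0.88). ENPP7, listed in the same role, went the other way at 806 and 616 counts and -0.36 (-0.51 to -0.21). SAMD8, the last of these 4 genes, had a value of 0.16 (0.073 to 0.25).

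Among the genes of acyl-CoA supply, 8 of 12 were positive and 4 negative, and 1 was above 0.5. ELOVL3, an elongase of very long fatty acids, had 81 and 132 counts and a value of 0.73 (0.32 to 1.15). Of the 7 compared genes of glycosphingolipid synthesis, 4 were positive and 3 negative. B4GALT6, which makes lactosylceramide from the product of UGCG, was higher at 355 and 524 counts and 0.59 (0.39 to 0.79). Its relative B4GALT5, listed in the same role, was far more abundant and lay nearer to its FFA level. B4GALT5 had 47.5 and 57.5 TPM, against 3.19 and 5.11 TPM for B4GALT6, and a value of 0.19 (0.13 to 0.24). The 6 genes of ceramide and lipid transfer were split evenly, 3 positive and 3 negative, and none was past 0.5.

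The sphingosine phosphate exporter SPNS2 and most of the receptors were barely counted in these cells, so their values are imprecise. SPNS2 had 32 and 14 counts and a log2 fold change of -1.11 (-2.19 to -0.22). MFSD2B, an exporter known from blood cells, had 291 and 239 counts and a value of -0.26 (-0.51 to -0.0046). Of the receptors, S1PR1 had 20 and 6 counts (-1.56, -3.31 to -0.34), and S1PR5 had 10 and 1 counts (-2.44, -8.73 to -0.48). S1PR2, the receptor with the most counts, had 194 and 210 and a value of 0.14 (-0.15 to 0.43). S1PR3 differed the other way from S1PR1, with 12 and 29 counts and a value of 1.23 (0.29 to 2.41). APOM, the apolipoprotein that carries sphingosine phosphate in plasma and is made in liver, was far more abundant at 20.7 and 22.6 TPM, with 537 and 541 counts and an interval that included 0 (0.038, -0.14 to 0.21).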

How the data were processed

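Both libraries, 1 per group, were stranded and made from poly(A) RNA, per the labels. Raw counts of fragments per gene were deposited by the authors, made with featureCounts version 2.0.1, with strand setting 2 and both ends mapped, without fragments that mapped more than once or touched more than 1 gene. The submitters' processing notes name GRCh38 and DESeq2. The aligner and annotation release are not given in the sources used here.

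The 34 members and the lists of neighbouring genes were chosen with earlier results of these data known. Size factors came from DESeq2 version 1.42.0 and TMM factors from edgeR version 4.0.16 in R version 4.3.3. No count model was fitted. A pseudocount of 1 was added to each normalized count before log2 fold changes were taken, which understates differences of low genes, and a sum of 10 counts over the libraries was required. Exact 95% intervals (Clopper-Pearson), shares and loess trends were computed with scipy 1.17.1 and statsmodels 0.14.6, tables were handled with pandas 2.3.3 and numpy 2.4.6 in Python 3.11.15, and figures were drawn with matplotlib 3.10.9. Intervals and floors (3 counts) cover counting error only. TPM used the exon length in the deposited tables, which understates genes with many annotated exons such as ASAH1 (15378 bases). The steps were tested on simulated data.

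Every member is named. Of the neighbouring genes, those past 0.5 with an interval that leaves out 0 are named, at most 12, and the others named, with chromosome neighbours, were chosen after their values were seen. The values of 1 neighbouring gene are not reported here. Sequences are from RefSeq, where 27 members matched by symbol. Alternatives were TMM and total-count scaling, other pseudocounts and count minimums, removal of trends on expression and length, whole intervals past the fold, and shares per length.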

Additional observations from a re-analysis of the deposited data

How the results depend on the processing

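Of the 30 compared members, 26 kept the sign of their log2 fold change under all settings. The other 4 are KDSR, which was negative with the trends on expression and on length removed, CERS2, which was positive with TMM, total counts and the expression trend removed, UGCG, which was positive with total counts, and SMPD4, which was negative with the length trend removed. The members past 0.5 stayed past it: SPTLC3 ranged from -1.62 to -1.52, SGMS2 from 0.87 to 0.96, SMPD1 from 0.78 to 0.86 and ACER3 from 0.58 to 0.68. The median of the members ranged from -0.028 without a count minimum to 0.044 with total counts. Without a minimum, 4 members were below -0.5 and 2 below -1, as 3 members with at most 4 counts enter, and of all genes 23.1% were then below -0.5 and 8.38% below -1. A minimum of 1000 counts, and the counts of intervals under other scalings, were added after seeing the data. No paired analysis was possible because each group had 1 library. The low counts of SPNS2 and the receptors limit their values: over the settings S1PR5 ranged from -3.17 to -1.31 and S1PR1 from -1.69 to -1.17.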

Other observations

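The genes beside the 4 members past 0.5 were looked up on the chromosome, taking the nearest annotated genes whose counts summed to at least 100, after the members' values had been seen. Of all genes compared, 22.5% had an interval above 0, as did 34.4% of those with at least 1000 counts. Several neighbours of ACER3 had such an interval, and so did several of SMPD1, so this was not particular to ACER3. Whether genes beside a member differ together with it was not tested. The neighbours of ACER3 are given first. TSKU, which encodes a secreted leucine-rich protein and lies 62.7 kb to the left, had 4252 and 6700 counts and a log2 fold change of 0.68. CAPN5, a calpain gene 40.2 kb to the right, had 119 and 226 counts and a value of 0.95. An entry without a symbol 56.3 kb to the left had a value of 0.38, while MYO7A, 101 kb to the right, had a value of -0.13. Beside SPTLC3, ISM1, 52.2 kb to the right, had 2422 and 2079 counts and a value of -0.19, far nearer to 0 than SPTLC3 at -1.57. TASP1, on the same side at 220 kb, had a value of 0.46. To the left of SPTLC3, PA2G4P2 at 628 kb had a value of -0.30 and BTBD3 at 1082 kb one of 0.14. On the right of SGMS2, CYP2U1 at 16.5 kb had a value of 0.37 and HADH at 74.7 kb one of -0.17. On its left, PAPSS1 at 104 kb had a value of -0.085 and AIMP1, as far away as 1475 kb, one of -0.70. On the left of SMPD1, FHIP1B at 156 kb had a value of 0.22. An entry without a symbol at 187 kb, with 35 and 70 counts, had one of 1.01. On the right of SMPD1, TRIM3 had a value of 0.21, and HPX had one of -0.42 with an interval that included 0 (-0.91 to 0.052).

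Several enzymes of fatty acid elongation, not past the limit used for naming, differed in both directions. ELOVL5 had 7735 and 9391 counts and a log2 fold change of 0.31, and TECR, the last enzyme of the elongation cycle, had 4796 and 5886 counts and a value of 0.32. ELOVL2 had 3996 and 2807 counts and a value of -0.48, and ELOVL6, which elongates palmitic acid, had 1779 and 1349 counts and a value of -0.37. Of the genes that bring ceramide to the Golgi, CERT1 had a value of -0.21 and VAPA, which anchors it at the endoplasmic reticulum, one of -0.33. VAPB, listed in the same role, went the other way at 0.082 (0.031 to 0.13). These genes were named after their values were seen.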
